A study of Mus musculus with 4 samples.

Results

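The genes of elastic fibres and of the latent TGF-β binding proteins were examined in hearts lacking *Jun* in striated muscle. The 10 genes encode elastin (*Eln*), the microfibril-associated proteins *Mfap2*, *Mfap4* and *Mfap5*, the latent TGF-β binding proteins *Ltbp1*, *Ltbp2*, *Ltbp3* and *Ltbp4*, fibulin-5 (*Fbln5*) and emilin-1 (*Emilin1*). They were chosen by name, with earlier results of these data known. Every probe set that the platform annotation assigns to 1 of these genes alone was used. This gave 20 of the 45037 probe sets tested and 10 of the 18193 genes with a name. In hearts of Jun delta mu mice *Mfap5* and *Ltbp2* were higher by 1.42-fold and 1.51-fold, which passed the study's limits on fold and unadjusted p in limma. By the methods' t-test, as computed here on log2 signals, neither brightest probe set passed. After Benjamini-Hochberg adjustment in limma no probe set of the array had a p under 0.05, and the smallest among the members was 0.896. *Mfap5* passed in limma with each array left out in turn, and *Ltbp2*, at 0.60 on the log2 scale, was at 0.28 without Jun delta mu replicate 2 and lost its call with 3 of the 4 arrays left out. No member was lower past these limits, and the elastin gene differed by 0.09 on the log2 scale with an interval on both sides of 0.

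Elastic fibres give arteries, valves and the interstitium of the heart their recoil. They consist of a core of cross-linked elastin laid down on a scaffold of fibrillin microfibrils, to which the microfibril-associated proteins, fibulins and emilins bind. The latent TGF-β binding proteins are relatives of the fibrillins: *Ltbp1*, *Ltbp3* and *Ltbp4* bind the latent complex of TGF-β and hold it in the matrix until it is activated, whereas *Ltbp2* does not bind latent TGF-β and is found on microfibrils. In the heart these proteins are made mainly by fibroblasts, smooth muscle and valve cells.

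RNA of whole hearts of mice aged 10 weeks, whose strain was given as mixed 129/Ola-C57BL/6, was hybridised to Affymetrix Mouse Genome 430 2.0 arrays, with 2 Junf/f and 2 Jun delta mu hearts. All 4 mice carry loxP-flanked *Jun* alleles. Jun delta mu mice carry in addition Cre recombinase under the muscle creatine kinase promoter, which is active in striated muscle, so that fibroblasts, vessels and valves keep *Jun*, and effects of Cre itself and of the deletion cannot be told apart. The mice were littermates according to the methods, and the hearts had not been operated on. The growth notes among the labels describe plated cells of digested ventricles instead, which conflicts with the titles and the methods. In whole hearts, fewer cells of a type and less RNA per cell cannot be told apart.

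All signals are given as log2 values after RMA, which have no true zero and no detection calls. A probe set ending in _at is meant to be specific for 1 transcript, in _a_at for transcripts of 1 gene, in _s_at it is shared among several transcripts, and in _x_at some of its probes match others. A difference is the mean of the Jun delta mu arrays minus the mean of the Junf/f arrays. The study's threshold means more than 1.3-fold, or 0.38 on the log2 scale, with an unadjusted p under 0.05. Here that p comes from limma in place of the methods' t-test. The methods also admitted selected genes through quantitative RT-PCR, a route not used here. The 4 arrays had median signals of 5.45 to 5.47. Across probe sets Junf/f replicate 1 correlated with the others at 0.994 to 0.995 and the others among themselves at 0.997, and it had 104 probe sets over 2-fold away from the average of the remaining 3 arrays, where each of those had 24 to 33. *Jun* itself was lower on both Jun delta mu arrays at both of its probe sets, with differences of -1.57 and -1.24. The cardiomyocyte gene *Myh6* was bright on every array, between 14.67 and 14.72 at 1448826_at, which is among the brightest probe sets, and between 11.69 and 12.17 at 1417729_at, where the difference of -0.31 did not pass but the groups did not overlap.

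The members lie apart in the genome. On GRCm38 *Mfap5* lies on chromosome 6 from 122513584 to 122529290, *Ltbp2* on chromosome 12 from 84783212 to 84876558, *Mfap4* on chromosome 11 from 61485431 to 61488708, *Mfap2* on chromosome 4 from 141010424 to 141015976 and *Eln* on chromosome 5 from 134702595 to 134747368. *Fbln5* shares chromosome 12 with *Ltbp2* at a distance of 16.9 Mb, and *Mfap2* shares chromosome 4 with *Jun* at a distance of 46.0 Mb. *Ltbp1* lies on chromosome 17 from 75005480, *Ltbp3* on chromosome 19 from 5740900, *Ltbp4* on chromosome 7 from 27305140 and *Emilin1* on chromosome 5 from 30913387.

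c-Jun is a subunit of AP-1, which binds the 7-base site TGACTCA, or TGAGTCA on the other strand, and with ATF partners the palindromic cAMP response element TGACGTCA. Promoter windows of 300 bases, from 250 before to 50 after a transcript start, came from RefSeq on GRCm38.p6. For the members there were 12 windows of 7 genes, namely *Mfap2*, *Ltbp1*, *Ltbp2*, *Ltbp3*, *Ltbp4*, *Fbln5* and *Emilin1*. The AP-1 site was in 1 of these 12 windows, that of *Ltbp3*, where it starts 6 bases before the transcript start, and in 5.2% of all 32851 windows. The response element was in 1 member window, that of *Ltbp1*, starting 73 bases before the transcript start, and in 1.79% of all windows. The window of *Ltbp2*, the 1 member past the threshold with a window, held neither of these letter strings. It held the GC box GGGCGG, or CCGCCC on the other strand, starting 133 and 9 bases before the transcript start. The GC box was in 35.7% of all windows and in 6 member windows of 4 genes, and TATAAA, searched on both strands, was in 13.6% of all windows and in 0 of the members'. A match describes the letters only. The windows of these 3 genes are printed from 5′ to 3′ on the strand of the gene, because they are the members' windows that hold a letter string bound by c-Jun complexes, with that of *Ltbp2* for comparison. Capitals mark the AP-1 site in *Ltbp3*, the response element in *Ltbp1* and the GC boxes in *Ltbp2*, which lie at chr19:5740650-5740949 on the plus strand, chr17:75005279-75005578 on the plus strand and chr12:84876442-84876741 on the minus strand.
Ltbp3: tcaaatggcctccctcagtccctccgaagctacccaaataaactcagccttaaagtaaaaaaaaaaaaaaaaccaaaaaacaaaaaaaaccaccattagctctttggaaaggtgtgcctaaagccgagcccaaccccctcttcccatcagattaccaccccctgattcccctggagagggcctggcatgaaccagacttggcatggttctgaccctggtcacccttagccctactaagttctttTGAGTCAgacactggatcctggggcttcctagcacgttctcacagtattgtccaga
Ltbp1: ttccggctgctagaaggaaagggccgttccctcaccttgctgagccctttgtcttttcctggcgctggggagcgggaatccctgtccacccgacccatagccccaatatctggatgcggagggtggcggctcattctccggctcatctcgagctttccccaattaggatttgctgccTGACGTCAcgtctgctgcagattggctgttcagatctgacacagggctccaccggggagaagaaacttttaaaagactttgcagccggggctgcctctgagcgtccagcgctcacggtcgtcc
Ltbp2: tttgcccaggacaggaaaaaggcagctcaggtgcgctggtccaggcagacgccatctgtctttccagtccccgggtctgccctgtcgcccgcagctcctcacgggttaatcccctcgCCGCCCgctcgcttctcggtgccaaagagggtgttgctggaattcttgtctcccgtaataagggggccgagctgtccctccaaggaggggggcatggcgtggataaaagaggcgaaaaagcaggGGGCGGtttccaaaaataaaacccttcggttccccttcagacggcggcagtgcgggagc

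**Figure D1:**
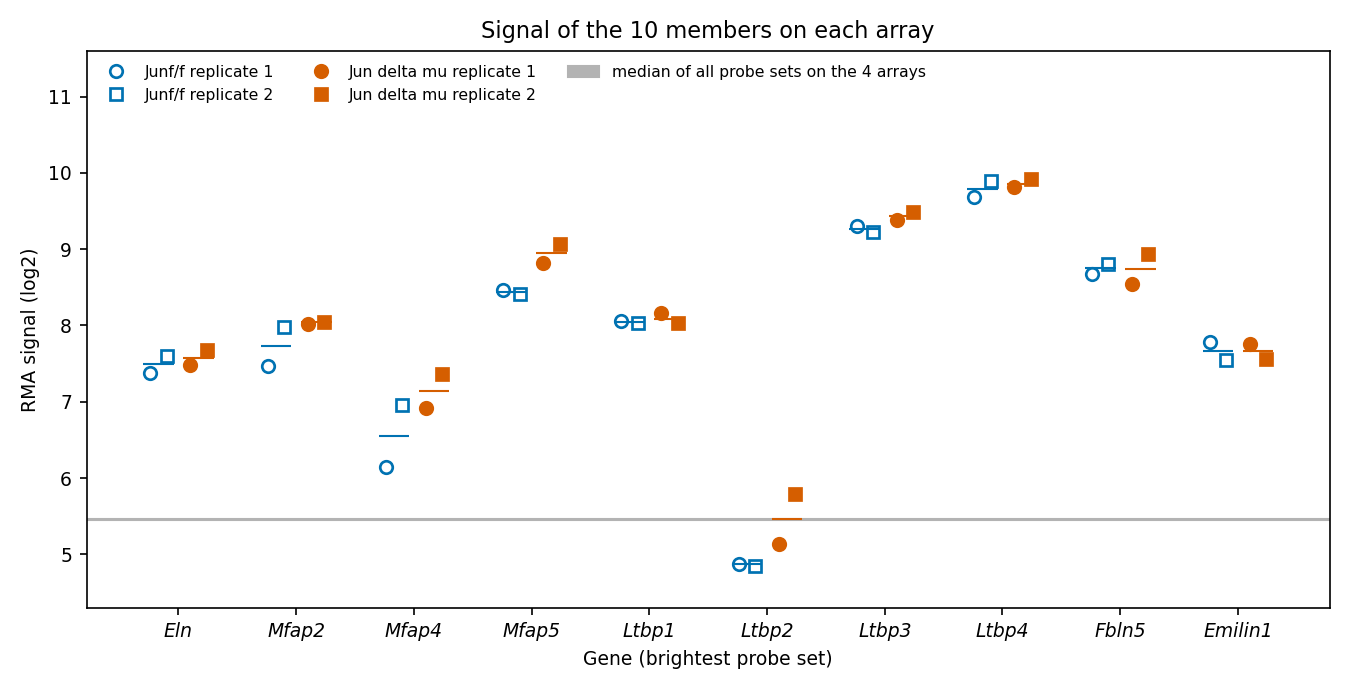
RMA signal on the log2 scale of the brightest probe set of each of the 10 genes on each of the 4 arrays. Open blue symbols are Junf/f and filled orange symbols Jun delta mu arrays, circles are replicate 1 and squares replicate 2, short lines are group means (n = 2) and the grey band is the range of the array medians, 5.45 to 5.47. *Mfap5*, *Ltbp2*, *Mfap2* and *Ltbp3* have both orange points above both blue points, whereas those of *Mfap4*, among others, overlap. *Ltbp2* is the 1 gene near the grey band.

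At baseline, in Junf/f hearts, 9 of the 10 genes had a brightest probe set above the median of their array. By the mean over the 4 arrays these 9 stood between the 67.6th percentile (*Mfap4*) and the 92.9th percentile (*Ltbp4*) of all probe sets, and *Ltbp2* stood at the 45.5th percentile. Brightness also depends on the probes, so that the plot of signal by array gives no order of RNA amounts between genes. The 10 dimmer probe sets ran down to a percentile of 7.21, that of 1 of the 4 probe sets of *Ltbp3*.

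Of the 20 probe sets of the members, 3 were higher past the study's threshold and 0 lower, where 0.568% of all probe sets tested were higher and 0.959% lower. Counted by brightest probe set, 2 of 10 genes were higher, where 0.665% of all genes were higher and 0.786% lower. The groups did not overlap at 9 probe sets, 6 of them higher and 3 lower in Jun delta mu hearts, where 17.3% of all probe sets were higher and 16.7% lower without overlap. By brightest probe set 4 of 10 genes were higher without overlap and 0 lower, where 17.8% of all genes were higher and 15.9% lower. An unadjusted p under 0.05 was reached by 5 of the 20 probe sets, 3 higher and 2 lower, where 5.16% of all probe sets reached it. None had an adjusted p under 0.05 in limma, where the smallest among the members was 0.896, the smallest among all probe sets was 0.237, and no probe set of the array was called. The median difference of the 10 genes was 0.13, beside 0.01 over all genes, and 8 of the 10 genes and 14 of the 20 probe sets were above 0, beside 52.2% of all genes and 50.4% of all probe sets. The members were chosen with earlier results of these data known, so that these comparisons are no test of the members as a set.

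**Figure D2:**
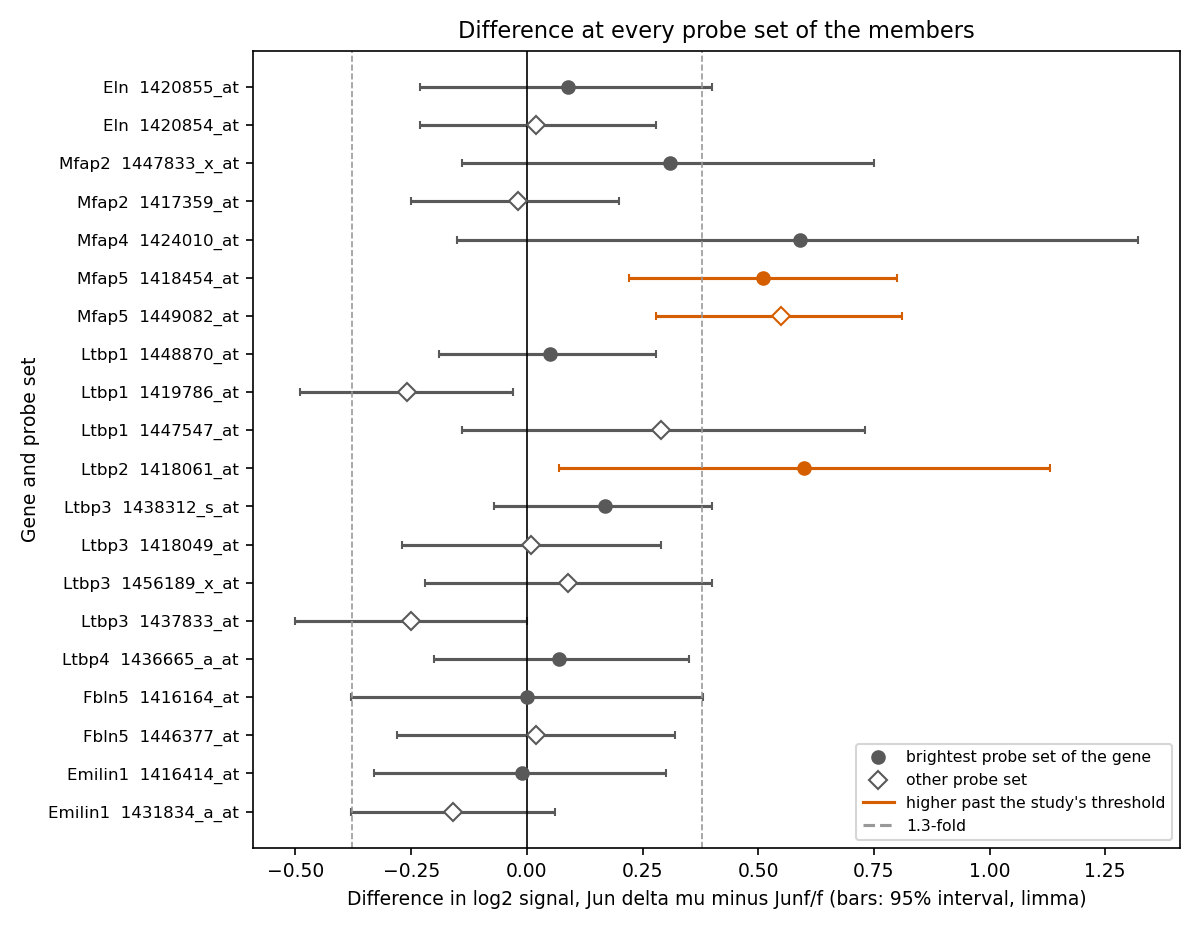
Difference in log2 signal, Jun delta mu minus Junf/f, at each of the 20 probe sets of the 10 genes, with 95% intervals from limma (2 arrays per genotype). Filled circles are the brightest probe set of a gene, open diamonds its other probe sets, orange marks those higher past the study's threshold, and dashed lines mark 1.3-fold. Both probe sets of *Mfap5* and the 1 probe set of *Ltbp2* are orange, and those of *Ltbp1* and *Ltbp3* scatter on both sides of 0.

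*Mfap5* encodes microfibril-associated glycoprotein 2, a small protein that binds fibrillin. Its brightest probe set, 1418454_at, read 8.47 and 8.41 in Junf/f hearts and 8.82 and 9.07 in Jun delta mu hearts. The second, 1449082_at, read 6.95 and 6.88 in Junf/f hearts and 7.37 and 7.56 in Jun delta mu hearts. At both probe sets each Jun delta mu heart was above each Junf/f heart, and the Junf/f hearts lay close to each other.

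The 2 probe sets of *Mfap5* gave nearly the same difference. It was 0.51 (95% interval 0.22 to 0.80) at the brighter and 0.55 (95% interval 0.28 to 0.81, 1.46-fold) at the dimmer one. The brighter minus the dimmer signal was 1.51 and 1.53 in Junf/f hearts and 1.45 and 1.51 in Jun delta mu hearts, so that the gap hardly varied between arrays. Their mean differed by 0.53, with an unadjusted p of 0.00221 in limma. Both probe sets were past the threshold with each of the 4 arrays left out in turn, at differences from 0.38 to 0.64. The methods' t-test passed the dimmer one at an unadjusted p of 0.0321, or 0.908 after Benjamini-Hochberg adjustment over all probe sets, and it missed the brighter one at 0.058. That dimmer probe set was the 1 member probe set higher by the methods' t-test, which called 0.198% of all probe sets higher and 0.246% lower. *Mfap5* and *Ltbp2* are among the genes the study listed from these same arrays, so that their direction here is not independent evidence.

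*Mfap2* encodes the closest relative of *Mfap5*, microfibril-associated glycoprotein 1. Its brightest probe set, 1447833_x_at, read 7.47 and 7.98 in Junf/f hearts and 8.02 and 8.05 in Jun delta mu hearts, a difference of 0.31 (95% interval -0.14 to 0.75) that missed the threshold. Only Junf/f replicate 1 stood clearly below the other hearts. Without that array the difference was 0.05, and without Junf/f replicate 2 it was 0.56 and past the threshold. The other probe set, 1417359_at, which is meant to be specific, read 6.84 and 6.82 in Junf/f hearts and 6.85 and 6.76 in Jun delta mu hearts, a difference of -0.02 (95% interval -0.25 to 0.20).

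The 2 probe sets of *Mfap2* therefore did not move together. The brighter minus the dimmer signal was 0.64 on Junf/f replicate 1 and 1.17, 1.17 and 1.29 on the other 3 arrays. Within each array the difference of *Mfap5* exceeded that of *Mfap2* by 0.57 (95% interval 0.26 to 0.87) at the dimmer probe sets and by 0.20 (95% interval -0.31 to 0.71) at the brighter ones. Whether these relatives differed thus depended on the probe set, and the comparison was chosen after their values were known.

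*Mfap4*, a fibrinogen-related glycoprotein that binds elastin and microfibrils, has 1 probe set, 1424010_at. It read 6.14 and 6.96 in Junf/f hearts and 6.92 and 7.36 in Jun delta mu hearts. The groups overlapped, since Junf/f replicate 2 was above Jun delta mu replicate 1. The difference of 0.59 was as large as that of *Mfap5*, but its 95% interval ran from -0.15 to 1.32 and it missed the threshold with an unadjusted p of 0.0967 in limma. It fell to 0.18 without Junf/f replicate 1 and was 1.00 and past the threshold without Junf/f replicate 2. Within arrays the difference of *Mfap5* minus that of *Mfap4* was -0.08 (95% interval -0.80 to 0.63), an interval wide enough for either gene to have changed more.

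*Eln* encodes tropoelastin, the building block of the elastic core. Its probe set 1420855_at read 7.38 and 7.60 in Junf/f hearts and 7.48 and 7.68 in Jun delta mu hearts, and 1420854_at read 6.73 and 6.90 against 6.87 and 6.81. At both probe sets the groups overlapped. The differences were 0.09 (95% interval -0.23 to 0.40) and 0.02 (95% interval -0.23 to 0.28), so that an increase of *Eln* as large as the 0.51 of *Mfap5* lies outside both intervals. Within arrays *Mfap5* differed by 0.42 more than *Eln* (95% interval 0.12 to 0.72), a comparison likewise chosen with the values known.

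*Fbln5* and *Emilin1* encode proteins that bind elastin and organise it on microfibrils. The brightest probe set of *Fbln5*, 1416164_at, read 8.68 and 8.81 in Junf/f hearts and 8.55 and 8.94 in Jun delta mu hearts, with a difference of -0.00 (95% interval -0.38 to 0.38). That of *Emilin1*, 1416414_at, read 7.79 and 7.55 in Junf/f hearts and 7.76 and 7.56 in Jun delta mu hearts, with a difference of -0.01 (95% interval -0.33 to 0.30). For *Emilin1* the hearts of 1 genotype differed from each other by more than the genotypes did, and for *Fbln5* the Jun delta mu hearts spanned both Junf/f hearts. A second probe set of *Emilin1*, 1431834_a_at, was slightly lower in both Jun delta mu hearts (6.54 and 6.58, against 6.69 and 6.75), and its difference of -0.16 was below 1.3-fold. The second probe set of *Fbln5*, 1446377_at, differed by 0.02.

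*Ltbp2* had the largest difference of the 4 latent TGF-β binding protein genes. Its 1 probe set, 1418061_at, read 4.88 and 4.85 in Junf/f hearts and 5.14 and 5.79 in Jun delta mu hearts, with means of 4.87 ± 0.02 (SD, n = 2) and 5.47 ± 0.46 (SD, n = 2). Both Jun delta mu hearts were above both Junf/f hearts, but the increase came mostly from Jun delta mu replicate 2. The difference was 0.60 (95% interval 0.07 to 1.13), with an unadjusted p of 0.0338 in limma. Without Jun delta mu replicate 2 it was 0.28 and not past the threshold, and without Junf/f replicate 1 or 2, at 0.62 and 0.58, the unadjusted p also missed, whereas it passed at 0.92 without Jun delta mu replicate 1. By the methods' t-test, which uses the spread of this probe set alone, it did not pass, at an unadjusted p of 0.204. All Junf/f signals lay below the array medians, where the deposited values give no detection call.

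The 3 genes whose proteins hold latent TGF-β did not pass the threshold. *Ltbp1* by its brightest probe set, 1448870_at, read 8.06 and 8.03 in Junf/f hearts and 8.16 and 8.03 in Jun delta mu hearts, a difference of 0.05 (95% interval -0.19 to 0.28). *Ltbp4*, measured by 1436665_a_at alone, read 9.69 and 9.89 in Junf/f hearts and 9.81 and 9.92 in Jun delta mu hearts, a difference of 0.07 (95% interval -0.20 to 0.35). The groups of both genes overlapped or met. *Ltbp3* by 1438312_s_at read 9.31 and 9.22 in Junf/f hearts and 9.38 and 9.49 in Jun delta mu hearts, which did not overlap, with a difference of 0.17 (95% interval -0.07 to 0.40). Within arrays *Ltbp2* differed by 0.50 more than the mean of these 3 genes, with a 95% interval from -0.01 to 1.02 that reaches 0.

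Probe sets of the same gene disagreed most for *Ltbp1* and *Ltbp3*. The dim *Ltbp1* probe set 1419786_at read 4.66 and 4.68 in Junf/f hearts and 4.36 and 4.47 in Jun delta mu hearts. Its difference of -0.26 had an unadjusted p of 0.0337 in limma but stayed below 1.3-fold, while a still dimmer one, 1447547_at, differed by 0.29 because Jun delta mu replicate 1 alone read 4.18 against 3.61 to 3.68 on the other arrays. For *Ltbp3* the second brightest probe set, 1418049_at, differed by 0.01, so that the separation at 1438312_s_at was not seen there. The dimmest *Ltbp3* probe set, 1437833_at, fell from 3.51 and 3.34 to 3.16 and 3.19, a difference of -0.25 below 1.3-fold, and 1456189_x_at differed by 0.09. Over all probe sets of a gene the mean difference was 0.03 for *Ltbp1* and 0.00 for *Ltbp3*. These 4 dim probe sets lie at or below the 34.5th percentile of signal.

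**Figure D3:**
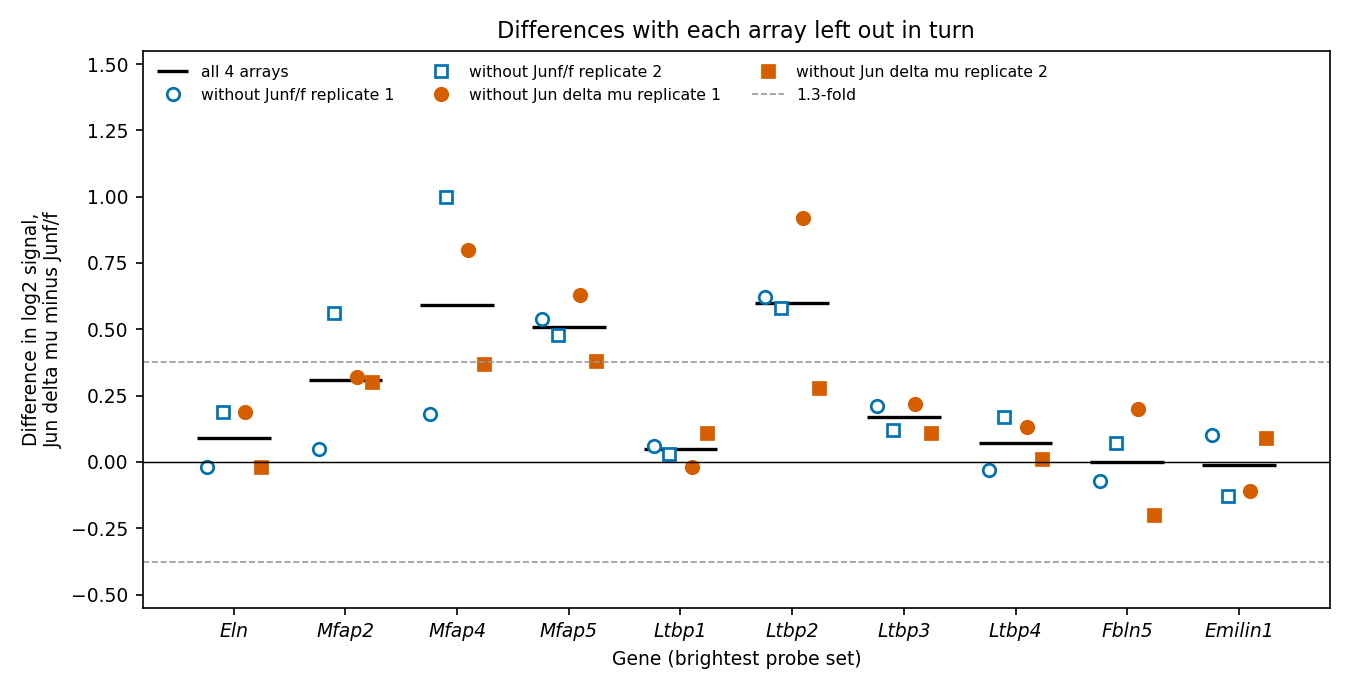
Difference in log2 signal of the brightest probe set of each of the 10 genes, Jun delta mu minus Junf/f, with all 4 arrays (black lines) and with each array left out in turn (symbols), with dashed lines at 1.3-fold. The symbols of *Mfap5* lie between 0.38 and 0.63, whereas those of *Mfap4* run from 0.18 to 1.00 and those of *Ltbp2* from 0.28 to 0.92.

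By brightest probe set 8 of the 10 genes had their highest signal on Jun delta mu replicate 2, which was so for 23.7% of all genes. *Ltbp1* and *Emilin1* were the exceptions. Some margins were small, as for *Mfap2* (8.05 against 8.02) and *Ltbp4* (9.92 against 9.89). Over all 20 probe sets 10 were highest there, beside 23.2% of all probe sets, and 1417359_at of *Mfap2* was lowest there. The average over the 10 genes, each minus its own mean, was -0.19 and -0.05 in Junf/f hearts and 0.03 and 0.21 in Jun delta mu hearts. As the plot of differences with each array left out shows, single arrays decided the size for *Mfap2*, *Mfap4* and *Ltbp2*. The median difference over the members ran from 0.08 without Junf/f replicate 1 to 0.21 without Jun delta mu replicate 1. It also depended on the probe sets, at 0.06 over all 20 probe sets, 0.06 over the 10 genes by the mean of their probe sets and 0.05 over the 9 genes with a specific probe set.

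Genes whose 4 arrays followed *Mfap5* most closely, among all genes by brightest probe set and with the members left out, were *Ammecr1*, *Vit* and *Disp3*. Their mean-centred signals differed from those of *Mfap5* by a root mean square of 0.0115, 0.0284 and 0.0389 over the 4 arrays, and 41 genes lay within 0.1 of it. For *Ltbp2* the nearest were *Thbs4*, *Ptgfr* and *Col8a1*, at 0.0799, 0.0977 and 0.108, and 2 genes lay within 0.1. *Thbs4*, a thrombospondin of the matrix, read 6.53 and 6.46 in Junf/f hearts and 6.68 and 7.54 in Jun delta mu hearts, highest on Jun delta mu replicate 2 like *Ltbp2*. Likeness over 4 arrays is a description of these hearts only.

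Other genes of the pathway gave a similar mixture. Of 54 genes listed for fibre assembly, latent TGF-β and its activation, TGF-β response and elastin breakdown, 49 were measured and the others were not analysed here. By brightest probe set 2 of the 49 were higher past the study's threshold, *Loxl4* and *Postn*, 47 did not pass and 0 were lower. Over all genes 0.665% were higher and 0.786% lower. The median difference was 0.07 over the 49 genes, 0.10 over 19 genes of assembly, -0.00 over 17 of latent TGF-β and activation, 0.13 over 6 of TGF-β response and 0.10 over 7 of elastin breakdown.

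Among the genes of assembly, *Loxl4* encodes an enzyme of the lysyl oxidase family, which cross-links elastin and collagen. It read 4.73 and 5.01 in Junf/f hearts and 5.31 and 5.26 in Jun delta mu hearts, and its difference of 0.41 passed only with all arrays and without Junf/f replicate 2. All *Loxl4* signals at this probe set lay below the array medians. The main cross-linking enzymes differed by 0.15 (*Lox*) and 0.06 (*Loxl1*), and the second probe set of *Loxl4* by 0.00. *Fbn2*, a fibrillin of the microfibril scaffold, differed by 0.13, and the fibulin gene *Fbln1* by -0.17. *Mmrn2*, an endothelial relative of the emilins, differed by -0.29, which is below 1.3-fold.

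The growth factor genes themselves differed by 0.07 (*Tgfb1*), -0.09 (*Tgfb2*) and 0.07 (*Tgfb3*). *Itgb6*, part of an integrin that activates latent TGF-β, was lower past the threshold at a dimmer probe set, 1432281_a_at, which read 5.82 and 5.68 in Junf/f hearts and 5.21 and 5.01 in Jun delta mu hearts. Its brighter probe set differed by -0.31 and did not pass. *Bmp1*, a protease that processes elastin cross-linking enzymes and *Ltbp1*, was higher past the threshold at a dim probe set, 1427457_a_at, by 0.43. Its brightest probe set differed by 0.06 and did not pass. *Thbs1*, an activator of latent TGF-β, differed by -0.28.

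In the response list *Postn*, a matricellular protein induced by TGF-β, read 8.88 and 8.44 in Junf/f hearts and 9.39 and 10.23 in Jun delta mu hearts, a difference of 1.15 (95% interval 0.41 to 1.90). It was the 1 gene of the response list past the threshold, and it missed at 0.93 without Junf/f replicate 2, whereas it passed at 0.73 without Jun delta mu replicate 2. *Ccn2*, also known as *Ctgf*, read 9.87 on Jun delta mu replicate 2 and 8.90 to 8.94 on the other arrays. *Tgfbi*, *Smad7* and *Skil*, which TGF-β also induces, differed by 0.05, -0.14 and 0.01. Among genes of elastin breakdown, *Mmp2* differed by 0.26, *Mmp12*, the macrophage elastase, by 0.17 and *Ctss* by -0.09, and none passed.

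**Figure D4:**
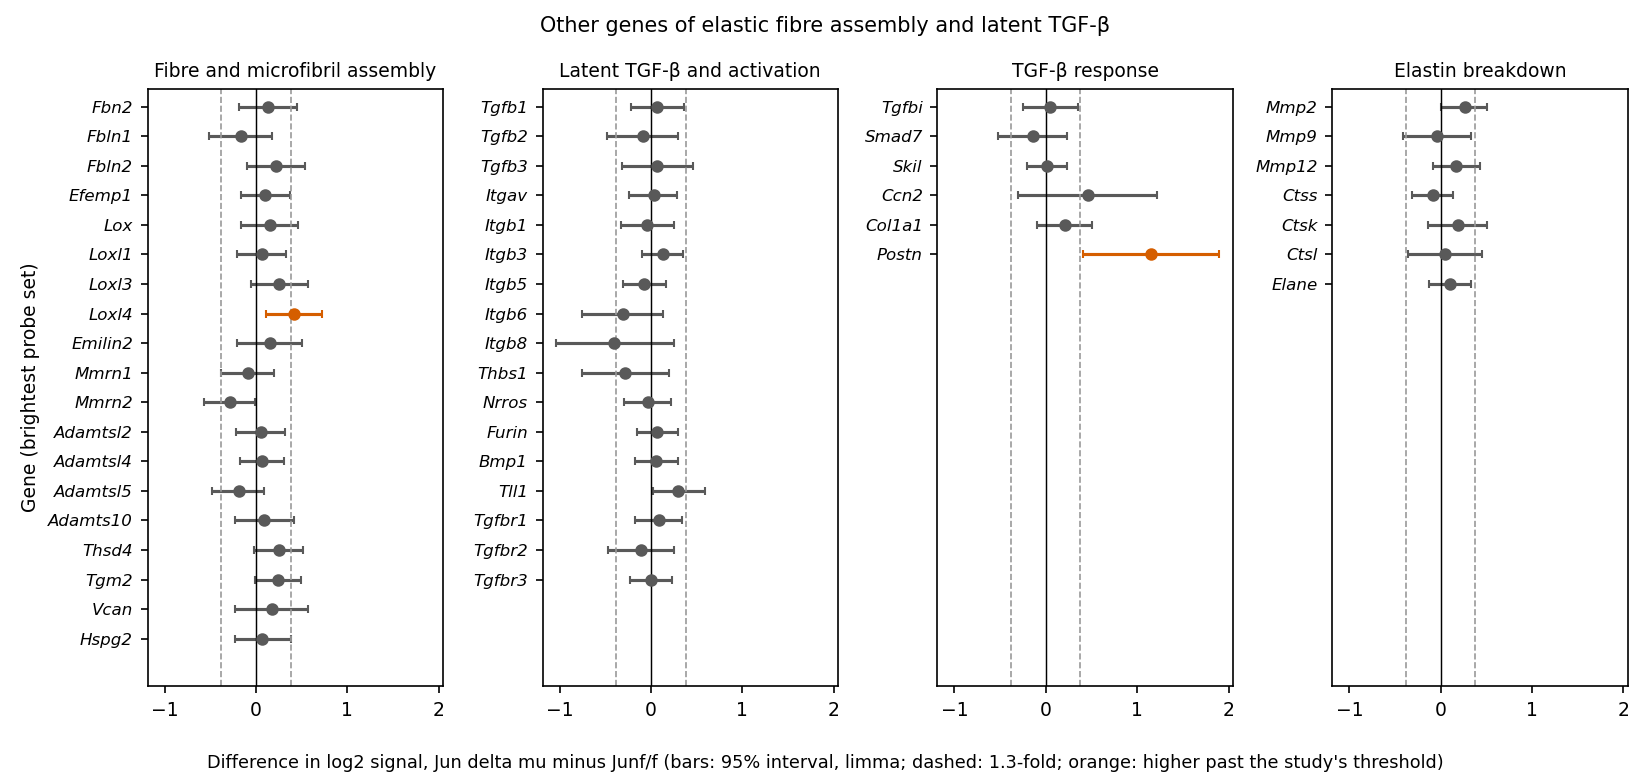
Difference in log2 signal, Jun delta mu minus Junf/f, of the brightest probe set of 49 other genes in 4 lists, with 95% intervals from limma (2 arrays per genotype), dashed lines at 1.3-fold and orange for genes higher past the study's threshold. *Loxl4* (0.41) and *Postn* (1.15) are orange, and the 17 genes of latent TGF-β and activation centre on 0.

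Markers of cell types that make these proteins moved unequally between the groups. Of 9 fibroblast genes 1 was higher past the threshold and none lower, where 0.665% of all genes were higher and 0.786% lower. Of the 9, 7 were above 0, 5 were higher without overlap of the groups and 6 were highest on Jun delta mu replicate 2. Over all genes these shares were 52.2%, 17.8% and 23.7%, and 8 of the 10 members were highest on that array. The 1 past the threshold was *Pi16*, a marker of adventitial fibroblasts, at 0.45, with 8.45 and 8.59 in Junf/f hearts and 8.92 and 9.03 in Jun delta mu hearts. The proteoglycan gene *Lum* (0.32) and the dermatopontin gene *Dpt* (0.31) reached unadjusted p-values of 0.0131 and 0.0383 in limma and did not overlap, but stayed below 1.3-fold. The collagen genes *Col1a1*, *Col1a2* and *Col3a1* differed by 0.21, 0.00 and 0.04, and *Pdgfra*, *Tcf21* and *Dcn* by -0.09, 0.08 and -0.02. The summed linear signal of the 9 was 21295 and 19082 in Junf/f hearts and 20260 and 21917 in Jun delta mu hearts, which overlap. Such sums follow the brightest genes most, and here *Dcn* is the brightest. The part of fibroblasts in the members' values was not tested.

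Of 6 smooth muscle genes 1, the contractile gene *Cnn1*, was lower past the threshold, with a difference of -0.67, and none was higher. Over all genes 0.786% were lower and 0.665% higher. *Cnn1* missed without Junf/f replicate 1, at -0.42, and without Jun delta mu replicate 1, at -0.45. In all 5 of the 6 genes were below 0, among them *Tagln* (-0.57), *Myh11* (-0.42) and *Acta2* (-0.34), and a dimmer probe set of *Mylk*, 1425505_at, was lower past the threshold at -0.68, but with 1 array left out it passed only without Junf/f replicate 2 and was at -0.27 without Junf/f replicate 1. The summed signal of the 6, of which *Acta2* is the brightest, was 2840 and 2864 in Junf/f hearts and 2203 and 2455 in Jun delta mu hearts. Both Jun delta mu hearts were thus below both Junf/f hearts. By brightest probe set none of 5 endothelial, 4 epicardial, 4 macrophage or 7 cardiomyocyte genes passed. A dimmer probe set of the epicardial gene *Upk1b*, 1435831_at, was lower past the threshold at -0.57. Without Junf/f replicate 1 its difference was -0.23. Of the endothelial genes 4 were lower without overlap, where 15.9% of all genes were, and 1 was above 0. All 4 epicardial genes were below 0.

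Jun delta mu replicate 2, highest for 8 members, also had the largest summed signal of atrial and of valve and cartilage-like genes. The summed signal of 4 atrial genes was 1449 there and 186 to 216 on the other arrays. *Sln* read 8.11 there against 3.81 to 4.15, *Myl7* 9.11 against 4.88 to 5.51 and *Bmp10* only 6.64 against 6.50 to 6.53. The summed signal of 7 valve and cartilage-like genes, of which *Prg4* is the brightest, was 834 there and 582 to 632 on the other arrays. Of the 7, 4 were highest there, among them *Prg4* at 8.84 and *Comp* at 6.46, whereas *Acan*, *Chadl* and *Sox9* were not. *Chad* (0.40) and *Prg4* (0.45) were higher past the threshold, where 0.665% of all genes were. *Chad* read 4.78 and 4.84 in the Jun delta mu hearts, so that it was not high on replicate 2 alone. All *Chad* signals lay below the array medians. Without Jun delta mu replicate 2 both calls were lost, at 0.36 for *Chad* and 0.24 for *Prg4*, and *Prg4* missed also without Junf/f replicate 2, at 0.33. Without Jun delta mu replicate 2, which leaves 1 Jun delta mu heart, the difference was 0.38 and 0.45 at the 2 probe sets of *Mfap5* and 0.28 for *Ltbp2*. The part of these cell types in the values of *Mfap5*, *Ltbp2*, *Mfap4* and the other members was not tested.

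**Figure D5:**
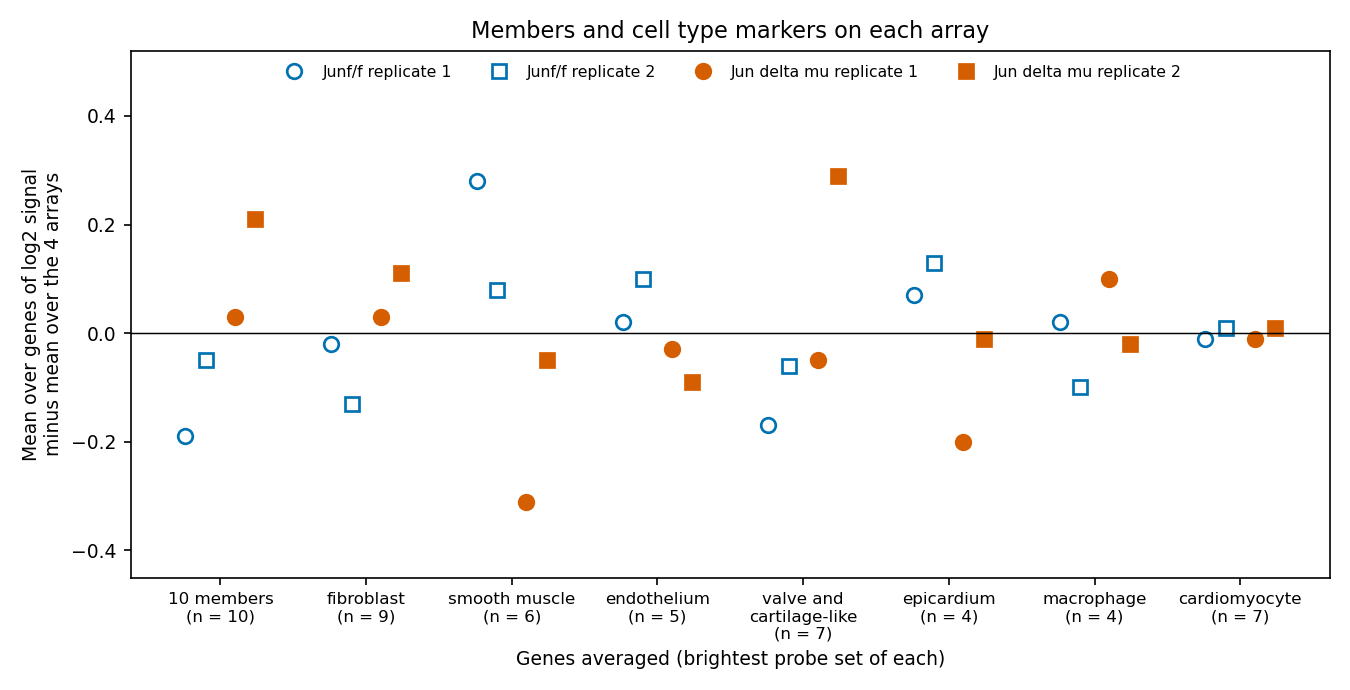
Mean over genes of log2 signal minus each gene's mean over the 4 arrays, for the 10 members and for 7 lists of cell type markers (n is the number of genes), with 1 symbol per array. The members, the fibroblast genes and the valve and cartilage-like genes are highest on Jun delta mu replicate 2, at 0.21, 0.11 and 0.29. The members and the valve and cartilage-like genes are lowest on Junf/f replicate 1, at -0.19 and -0.17, and the fibroblast genes on Junf/f replicate 2, at -0.13. The atrial list is not drawn.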

How the data were processed

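Hearts of 2 Junf/f and 2 Jun delta mu mice were profiled, with groups and replicate numbers taken from the sample labels. The values deposited by the authors are log2 signals from RMA, which corrects background and normalizes across arrays, in the R package oligo (versions not given in the sources used here), for 45101 probe sets without missing values. The 64 control probe sets were left out. Names came from the platform annotation (34945 probe sets with 1 gene, 932 with several, 9160 with none) and positions from RefSeq on GRCm38.p6. The fit was made per probe set by lmFit and eBayes of limma 3.58.1 (R 4.3.3), with genotype as its single term and two-sided p-values adjusted by Benjamini-Hochberg over all 45037, and the brightest probe set stood for a gene. With 2 residual degrees of freedom among arrays, limma draws the variance of each probe set towards a value shared by all probe sets. Its p-values thus rest partly on that shared value, and they speak for these hearts only. The number of arrays limits the precision.

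The members, gene lists and tests were chosen with earlier results of these data known. Named are all members, genes of 4 pathway lists past the threshold at any probe set with up to 5 others by role, and the 3 genes nearest to each called member. Markers were named by cell type. Alternatives were the methods' t-test, a replicate block, 3 normalizations, array weights, a robust trended prior, a filter on the lowest 40% of signals, linear means, other probe set rules and each array left out, where the single array left in a group takes its spread from the other. The same fit was also run on simulated arrays with known shifts, whose spread was taken from these arrays. Figures were drawn with matplotlib 3.10.9.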

Additional observations from a re-analysis of the deposited data

How the results depend on the processing

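*Mfap5* was past the threshold under every alternative that used limma. Under the methods' t-test 1 member probe set and 0 member genes were higher, as were 0 pathway genes, with 89 probe sets higher and 111 lower over the array, and after Benjamini-Hochberg adjustment 0 member probe sets and 0 of all. With array weights 1 member gene was higher, *Ltbp2* missing at 0.60. Without the lowest 40% of signals, 158 probe sets were higher and 305 lower among the 27022 left, so that fewer were tested. The mean over probe sets gave 1 pathway gene higher and 1 lower.

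Leaving out each array gave 1 to 3 member genes higher, 1 to 2 pathway genes higher and 0 to 2 lower, and over the array 320 to 1466 probe sets higher and 419 to 1986 lower. The most calls came without Junf/f replicate 2. Differences ranged from -0.02 to 0.19 for *Eln*, -0.02 to 0.11 for *Ltbp1*, -0.03 to 0.17 for *Ltbp4*, -0.20 to 0.20 for *Fbln5* and -0.13 to 0.10 for *Emilin1*. *Fbln5* and *Emilin1* changed sign near 0, to 0.03 each with quantile normalization and 0.02 and 0.01 with cyclic loess, as did *Fbln5* at 0.01 with linear means and with the mean over probe sets. *Mfap2* was at -0.02 by specific probe sets.

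With the replicate block *Mfap4* passed the threshold at 0.59, the 1 call it changed among the member genes. Deviations of the replicates with the same number correlated at 0.0281, and the labels tie the numbers to no shared litter. The causes of these changes were not tested.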
